A study of Mus musculus with 35 samples.

Results

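Stable distal acetylation in the retina was examined as a set of 283 regions, out of the 29304 H3K27Ac peaks of replicate 2 of the wild-type P0 (newborn) retina. The regions were chosen by their measured peaks: each P0 replicate 2 peak had to share at least 1 bp with an H3K27Ac peak of P0 replicate 1, of the wild-type P12 library and of replicate 2 at P14 and at P21, and with no H3K4me3 peak of any of the 7 wild-type H3K4me3 libraries. They made up 0.966% of the P0 replicate 2 peaks. The word distal means here only that no wild-type H3K4me3 peak overlapped, since positions are on mouse build mm9 and no gene annotation of that build was used. Presence in the 5 H3K27Ac lists and absence from the H3K4me3 lists are therefore what the rule asked for and are given as description.

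Acetylation of histone H3 at lysine 27 marks active promoters and active enhancers, the DNA elements that raise transcription from a distance. Trimethylation at lysine 4 of the same histone marks promoters, so acetylation without it is typical of enhancers. Trimethylation at lysine 27 is deposited by Polycomb complexes and marks repressed chromatin, and because it sits on the same residue as the acetyl group, 1 histone tail cannot carry both. Brg1 (Smarca4) is the ATPase of the BAF chromatin remodelling complex, which moves or removes nucleosomes at promoters and enhancers. Between birth and weaning the mouse retina turns from a tissue that still contains dividing progenitors into one dominated by differentiated rod photoreceptors, and many enhancers change with that turn.

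ChIP-Seq was performed on whole retina. For H3K27Ac there were 2 wild-type libraries each for P0, P14 and P21, with 1 for P12. Brg1-deficient retinae at P12, labelled BRG1 -/- and made with Chx10-Cre and Brg1 Lox/Lox alleles, gave 2 H3K27Ac libraries, 1 H3K4me3 library and 1 H3K27me3 library. Chx10-Cre is driven in retinal progenitors and is mosaic, so wild-type stripes remain, and mice with small eyes were preferred for the ChIP. The share of cells that kept Brg1 in these libraries is not known. Brg1 itself was measured once, at P0, with anti-FLAG in Brg1-FLAG knock-in pups whose tagged protein comes from the gene's own locus. H3K27me3 was measured with 1 antibody in 2 wild-type libraries per stage at P0, P14 and P21, and with another in 2 wild-type libraries at P12 and the Brg1-deficient one. In bulk tissue, fewer cells with a mark and less of the mark per cell cannot be told apart.

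The number of reads behind each library is unknown, and the lists differed in length. H3K27Ac lists held between 17433 and 50005 peaks. Replicate 1 was the shorter list at P0, P14 and P21, with 17588, 17433 and 18718 peaks, against 29304, 50005 and 45833 in replicate 2. A missing peak therefore means that none was called at that library's depth, and 95% Wilson intervals below cover counting error only and treat neighbouring regions as independent, which they are not.

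Of the 9819 P0 replicate 2 peaks without wild-type H3K4me3, most were not found in P0 replicate 1, and of those that were most lacked a later peak. Of the 14741 peaks found in both P0 replicates, 1371 had no wild-type H3K4me3 peak, and 20.6% of these were stable. Of the 13370 with H3K4me3, 11818 were stable, which is 88.4%. These 11818 stable peaks with H3K4me3 serve below as 1 comparison set. The other is the 1088 reproducible P0 peaks without H3K4me3 that were not stable. In 764 of them none of the 3 later lists had a peak, in 181 a single list did and in 143 all but 1 did.

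At the edges of the rule the members differed little from the peaks that just missed. The smallest overlaps that counted were 3 bp, at chr8:122822408-122822724 in the P12 library, and 4 bp, at chr12:88238753-88239018 in P0 replicate 1. Just outside, the peak at chr2:30470065-30470478 missed P0 replicate 1 by 2 bp, and chr8:129408325-129408851 missed P14 replicate 2 by 9 bp. In all, 11 members had under 50 bp of overlap in at least 1 list. Of the 1080 peaks without H3K4me3 that missed exactly 1 list, 937 missed P0 replicate 1, the shortest of the 5 lists. On the H3K4me3 side, the nearest members lay 10 bp (chr2:26151939-26153725) and 47 bp (chr16:37974345-37975205) from a wild-type H3K4me3 peak. The nearest non-members overlapped one by 19 bp (chr12:3834182-3834501) and 48 bp (chr15:100928703-100929176).

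The stable distal regions were lower than stable peaks with H3K4me3 and of similar width. Their median width at P0 replicate 2 was 939 bp, against 904 bp at stable peaks with H3K4me3 and 768.5 bp at the other distal P0 peaks. Height was read as the fold enrichment over background at a peak's summit, as deposited, and where several peaks overlapped a region the highest was taken. At P0 the median height of the members was 4.58 in replicate 1 and 5.44 in replicate 2, with ranges of 2.63 to 14.3 and 2.10 to 15.2. It was 5.26 at P12 (2.36 to 22.4), 5.66 at P14 replicate 2 (2.28 to 28.2) and 4.88 at P21 replicate 2 (2.08 to 20.3). These medians are unscaled. Put on 1 scale as described below, they were 5.49 and 5.95 at P0, 4.88 at P12, 3.80 at P14 replicate 2 and 5.55 at P21 replicate 2, so the middle of the distribution was lowest at P14 after scaling and highest there before it. Stable peaks with H3K4me3 were taller in each of these libraries, with medians of 8.27, 9.30, 10.1, 14.2 and 8.70.

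The later peak was not always the same summit. The summit of the overlapping peak lay inside the P0 region for 232 of 283 members at P12, for 217 at P14 replicate 2 and for 229 at P21 replicate 2. For the rest, the height belongs to a peak that reached the region from its side. Some members also shared 1 later peak with a neighbour, which was so for 17 members at P12, 30 at P14 replicate 2 and 24 at P21 replicate 2.

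**Figure D1:**
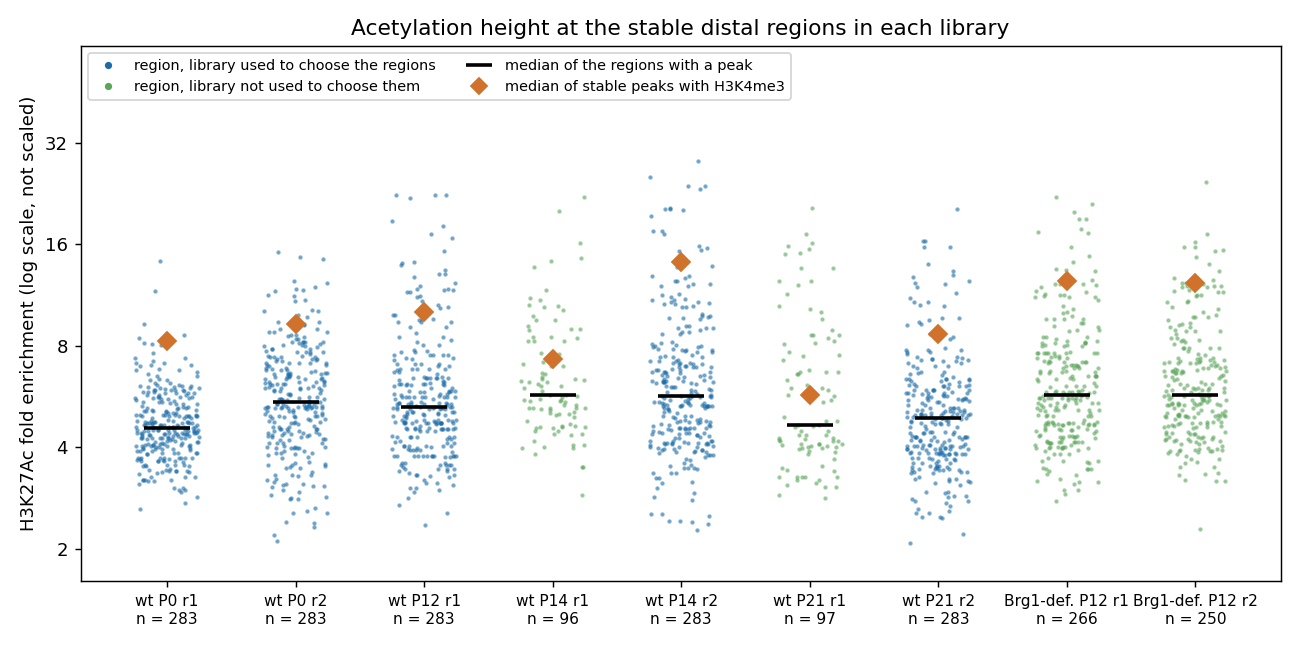
H3K27Ac fold enrichment (log axis, not scaled between libraries) of each stable distal region in each of the 9 H3K27Ac libraries, drawn only where the library had a peak (n under each library). Black bars are the members' medians, between 4.58 and 5.72, and orange diamonds are the medians of stable peaks with H3K4me3, which lie above them in each library. Blue points are libraries that chose the regions and green points are libraries that did not.

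The 5 members that kept the highest lowest height over the 5 libraries of the rule, after scaling, show that a stable peak need not have a stable height. (For scaling, each library was divided so that the 6712 P0 replicate 2 peaks present in all 9 lists had the same median.) The first was chr8:122845979-122847083, which lay 352 bp from H3K4me3. Its unscaled heights were 6.10 and 6.18 in the P0 replicates, 15.2 at P12, 11.7 and 19.3 in the P14 replicates and 15.8 and 16.4 in the P21 replicates, so both P0 values lay below all 5 later ones. The same held for chr7:54090351-54091127, with 5.30 and 5.44 at P0, 16.7 at P12, 10.6 and 20.3 at P14 and 15.0 and 12.8 at P21. In both regions the P12 summit lay outside the P0 region, and in the second that of P14 replicate 2 did too.

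The other 3 of these members were flatter or less even. The region chr2:152521675-152522750 had heights of 5.56 and 7.41 at P0, 9.41 at P12, 3.97 and 10.8 at P14 and 6.69 and 9.38 at P21, and its groups overlapped. The region chr5:125639889-125640808 had 5.12 and 6.45 at P0, 6.46 at P12, 6.09 and 12.9 at P14 and 3.27 and 5.78 at P21, again with overlap. Here the summits of P12 and P14 replicate 2 lay outside the P0 region. The region chr10:80140723-80142112 had 5.39 and 6.45 at P0, 7.72 at P12, 15.6 at P14 replicate 2 and 13.6 and 11.5 at P21, with no peak in P14 replicate 1. Its later summits at P14 and P21 lay outside the P0 region, which was 126 bp from H3K4me3.

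The members with the largest rise from P0 to P21 in replicate 2 were low at birth, which a ranking by this ratio favours. At chr2:165711911-165712525 heights were 2.95 and 4.94 at P0, 11.8 at P12, 13.7 and 13.8 at P14 and 9.63 and 20.3 at P21. At chr12:112923514-112923837 they were 3.82 and 4.42 at P0, 22.4 at P12, 22.0 and 23.9 at P14 and 17.1 and 15.7 at P21. In both, each P0 value lay below each later value, including replicate 1 of P14 and P21, which the rule did not use. However, the replicate 2 summits of P14 and P21 lay outside the P0 region in both. These regions lay 320 bp and 1417 bp from H3K4me3. In the second the P12 summit did too. The third, chr2:129690133-129690613, had 3.21 and 2.20 at P0, 4.54 at P12, 4.0 and 8.24 at P14 and 2.88 and 7.37 at P21. Its P21 replicate 1 value lay between the P0 values before scaling and, at 5.83 against 3.85 and 2.41, above them after it. The summits of P12 and P21 replicate 2 lay outside this region.

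The members with the largest fall had their highest values in P0 replicate 2, the denominator of the ratio that ranked them. At chr12:12910568-12912449 heights were 6.19 and 14.5 at P0, 3.97 at P12, 4.29 at P14 replicate 2 and 2.94 at P21 replicate 2. At chr7:106720746-106722193 they were 4.89 and 11.3 at P0, 3.10 at P12, 4.09 at P14 replicate 2 and 2.48 at P21 replicate 2. At chr1:38933243-38935004 they were 4.83 and 11.7 at P0, 3.14 at P12, 5.83 at P14 replicate 2 and 3.46 at P21 replicate 2. None of the 3 had a peak in replicate 1 of P14 or P21. The P0 replicates differed more than 2-fold at each of them.

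The widest members were lower at P21 than at P0 replicate 2. The region chr5:112665017-112669050 was 4034 bp wide, chr2:157257291-157261147 was 3857 bp and chr9:64620585-64623858 was 3274 bp. Their heights at P0 were 8.13 and 5.57, 4.14 and 7.13, and 9.30 and 12.4, and at P21 replicate 2 they were 5.23, 3.49 and 4.40. None had a peak in replicate 1 of P14 or P21. The first is also the member with the most H3K27me3, described below.

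A test of stability that the rule did not make is given by replicate 1 of P14 and of P21. Of the 283 members, 96 had a peak in P14 replicate 1 (33.9%, interval 28.7 to 39.6%) and 97 in P21 replicate 1 (34.3%, 29.0 to 40.0%). A peak in both was found at 65 members (23.0%) and in at least 1 of them at 128 (45.2%). Over all 29304 P0 replicate 2 peaks the shares were 35.5%, 30.6%, 27.6% and 38.5%, so in each single library that of the members was close to the level of any P0 peak. At the other distal P0 peaks the shares were 0.735% and 0.184%, far below those of the members. Those peaks were chosen for lacking a peak in at least 1 later library of the rule. Stable peaks with H3K4me3 were found more often than all of these, at 72.3% and 59.4%. The members are lower peaks and these 2 lists are short, so the shares were also set side by side by height group. Among members of the lowest of 3 equal height groups at P0 replicate 2 (under 4.75), 27.7% and 34.0% were found, against 46.9% and 39.1% of stable peaks with H3K4me3 of that height. In the middle group the members' shares were 40.9% and 39.8%, against 54.4% and 43.7%. In the highest group (over 6.45) they were 33.3% and 29.2%, against 78.9% and 64.9%. That group had no upper limit, so heights there are not alike. Members reached 15.2 and stable peaks with H3K4me3 reached 36.0. Height at birth thus did not order the members' presence in the unused later libraries. At stable peaks with H3K4me3 the share rose with height, most of all into the group without an upper limit.

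**Figure D2:**
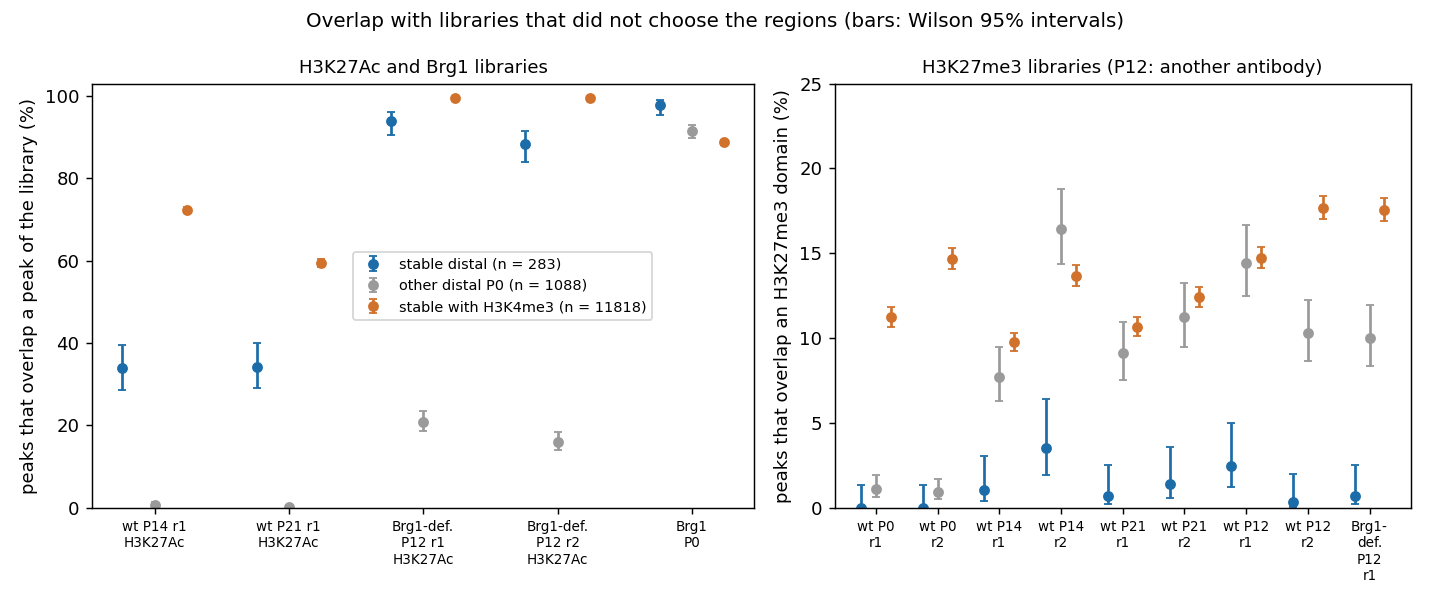
Share of stable distal regions (blue), other distal P0 peaks (grey) and stable peaks with H3K4me3 (orange) that overlap a peak in libraries the rule did not use, with Wilson 95% intervals, for H3K27Ac and Brg1 on the left and H3K27me3 domains on the right. The stable distal regions lie at 33.9% and 34.3% in the shorter P14 and P21 lists, at 94.0% and 88.3% in the Brg1-deficient lists and at 97.9% for Brg1, and at or below 3.53% for H3K27me3.

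Where replicate 1 of a later stage had a peak, its unscaled change from P0 tended to go with that seen in replicate 2. The log2 ratio of later to P0 height, not scaled, was computed within replicate 1 and within replicate 2, which share no library. Over the 96 members with a P14 replicate 1 peak, the ratios of the 2 replicates had Pearson's r = 0.56 and Spearman's rho = 0.56 and the same sign at 73 members. Over the 97 with a P21 replicate 1 peak, r was 0.50 and rho 0.45, with the same sign at 64. These are correlations across regions of the same libraries, and regions are not replicates. Members with a higher ratio in replicate 2 thus tended to have a higher ratio in replicate 1. A divisor per library leaves these correlations as they are but can change the sign counts. The sign counts were not made after scaling or over all peaks.

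The direction of the typical member depended on how libraries were put on 1 scale. From P0 to P21 in replicate 2, the pair used by the rule, the median log2 ratio was -0.11 unscaled and -0.05 scaled, where that of all peaks present at both stages was 0.00 and 0.06. At least 2-fold higher at P21 were 22 of 283 members, where 11.8% of all P0 replicate 2 peaks present at both stages were, and at least 2-fold lower were 36 members, where 9.07% of all were. In replicate 1 the median over 97 members was 0.13 unscaled and 0.88 scaled, where that of all 7137 peaks was -0.71 and 0.05. There 21 of 97 members were at least 2-fold higher, where 4.3% of all peaks present in both replicate 1 lists were, and 2 were at least 2-fold lower, where 36.9% of all were. The replicate 1 members are those that had a peak in the short P21 list, so low values at P21 are missing from them. At P14 the medians were 0.39 unscaled and 0.63 scaled in replicate 1 (n = 96), and 0.00 unscaled and -0.70 scaled in replicate 2 (n = 283). No direction of change over the stages is therefore given for the set.

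**Figure D3:**
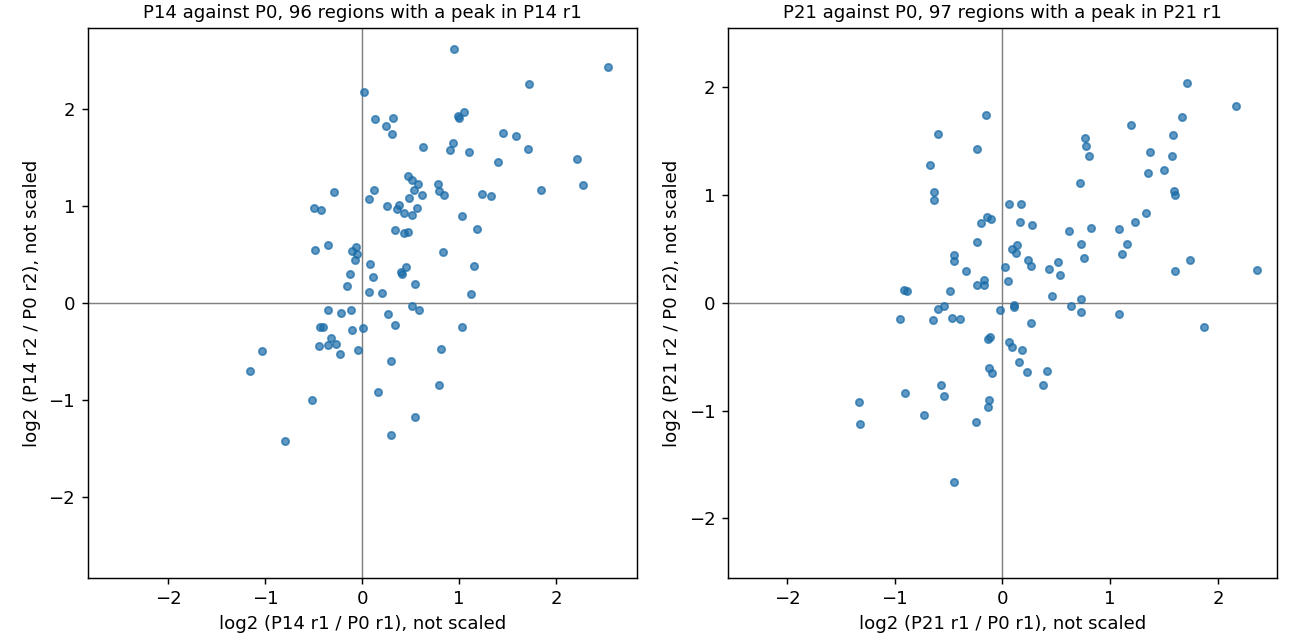
Log2 ratio of later to P0 height at each stable distal region with a peak in replicate 1 of the later stage, replicate 1 on the x axis and replicate 2 on the y axis, not scaled (P14 left, 96 regions; P21 right, 97 regions). Points lean to the diagonal, with r = 0.56 and r = 0.50, and 73 and 64 regions have the same sign in both replicates.

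Brg1 occupied nearly all of the members at birth. Of the 283 regions, 277 overlapped a Brg1 peak at P0 (97.9%, interval 95.5 to 99.0%). The share was 91.5% at the other distal P0 peaks (89.7 to 93.1%) and 88.8% at stable peaks with H3K4me3 (88.2 to 89.3%), so neither interval reached that of the members, and 75.3% of all P0 replicate 2 peaks had one. At like acetylation width the difference from the other distal peaks was limited to narrow peaks. Under 688 bp, 95.7% of members and 82.6% of other distal peaks had a Brg1 peak, from 688 to 1169 bp 98.9% and 97.0%, and above that 98.9% and 100%. The median Brg1 fold enrichment was 7.03 at the members with a peak, 6.32 at the other distal peaks and 6.36 at stable peaks with H3K4me3, where all 50861 Brg1 peaks had a median of 4.28. There was 1 Brg1 library, so these values have no replicate error.

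The Brg1 peaks at the stable distal regions were long. Their median width was 2239 bp, against 1641 bp at the other distal P0 peaks, 993 bp at stable peaks with H3K4me3 and 523 bp over all Brg1 peaks. At least 2000 bp wide were 54.2%, 40.1%, 16.5% and 5.28% of them in the same order. Some members share 1 Brg1 peak, and when each of the 252 different peaks was counted once the median was 1995 bp, against 1452 bp over 873 peaks and 959.5 bp over 9984 peaks. The order did not depend on the width of the acetylation. Among regions whose H3K27Ac peak was under 688 bp, the median Brg1 widths were 1486.5 bp at members, 1251.5 bp at other distal peaks and 729 bp at stable peaks with H3K4me3. From 688 to 1169 bp they were 2308, 1505.5 and 903 bp, and above that 2974, 2571 and 1406 bp.

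**Figure D4:**
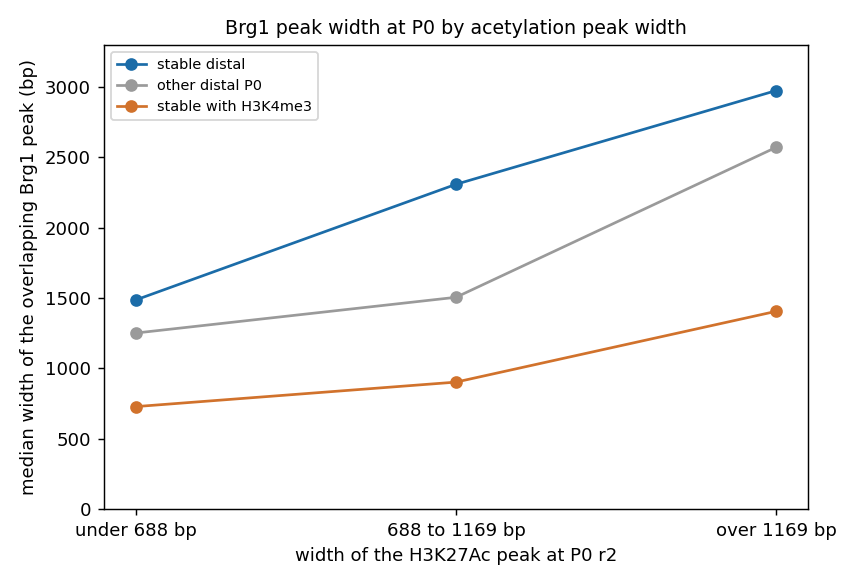
Median width in bp of the Brg1 peak at P0 that overlaps stable distal regions (blue), other distal P0 peaks (grey) and stable peaks with H3K4me3 (orange), for 3 classes of H3K27Ac peak width at P0 replicate 2. In each class the stable distal regions have the widest Brg1 peaks, from 1486.5 bp in the narrowest class to 2974 bp in the widest.

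In Brg1-deficient retina at P12 most of the members kept an acetylation peak. A peak was present at 266 of 283 members in replicate 1 (94.0%, interval 90.6 to 96.2%) and at 250 in replicate 2 (88.3%, 84.1 to 91.6%), which is 91.2 ± 4.0% (SD, n = 2 libraries). Both libraries had a peak at 243 members (85.9%), exactly 1 at 30 and neither at 10. Over all 17583 P0 replicate 2 peaks with a wild-type P12 peak, 92.3% had a peak in both, above the members' share, and 2.74% had none in either Brg1-deficient library, against 10 of 283 members. Of these 17583 peaks, 11818 were stable peaks with H3K4me3. Of the 138 other distal P0 peaks with a wild-type P12 peak, 49 had a peak in both, below the members' share. Their median wild-type P12 height was 4.04, against 5.26 at the members, and they were chosen for lacking a later peak. Since the rule asked for a wild-type P12 peak, these shares say how often a peak known to be present in 1 wild-type library was called again, and no second wild-type P12 library gives the same share without the deletion.

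The members without a Brg1-deficient peak were weak in wild-type P12. Their median height there was 3.78 for the 10 members with neither peak and 4.01 for the 30 with exactly 1, against 5.42 for the 243 with both. All 40 had a Brg1 peak at P0, as did 237 of the 243, so this was close to the 97.9% of all members. Only 1 of the 40 had a peak in replicate 1 of wild-type P14 or P21, against 127 of the 243. The tallest of the 10 in wild-type P12 was chr2:157173010-157174068, with heights of 3.42 and 14.7 at P0, 5.89 at P12, 4.10 at P14 replicate 2 and 4.75 at P21 replicate 2. Named after its values were seen, it was a member whose P0 replicates differed more than 2-fold. Another was the widest member, chr5:112665017-112669050, with 3.58 at wild-type P12.

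Presence in Brg1-deficient retina rose with wild-type height, and at like height members were found less often than stable peaks with H3K4me3. In the lowest of 3 equal groups of wild-type P12 height (2.36 to 4.71), 66 of 93 members had a peak in both Brg1-deficient libraries (71.0%, interval 61.1 to 79.2%), against 94.2% of stable peaks with H3K4me3 (92.5 to 95.6%). In the middle group the shares were 87.4% (79.2 to 92.6%) and 97.6% (96.7 to 98.3%). In the highest group, over 6.14, they were 98.9% (94.3 to 99.81%) and 99.9% (99.82 to 99.9%). These intervals narrowly failed to overlap. The same height groups in wild-type P14 replicate 1, a library with Brg1, gave 15.1% against 17.7%, 20% against 33.5% and 66.3% against 82.1%. In wild-type P21 replicate 1 they gave 14% against 9.37%, 26.3% against 21.5% and 62.1% against 68.2%. In the lower groups at P21 the members' share lay above that of stable peaks with H3K4me3, and in the other 4 cases below it. The part of the deletion in the Brg1-deficient shares was not tested.

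Presence in Brg1-deficient retina was also sorted by the Brg1 of the region at birth. In the lowest, middle and highest of 3 equal groups of Brg1 fold enrichment, 79.6% (interval 70.3 to 86.5%), 86.8% (78.4 to 92.3%) and 90.3% (82.6 to 94.8%) of the members had a peak in both Brg1-deficient libraries. These intervals overlap. The same groups had a peak in 25.8%, 28.6% and 47.3% of cases in wild-type P14 replicate 1, and in 28.0%, 34.1% and 39.8% in wild-type P21 replicate 1. The median scaled log2 ratio to wild-type P12 was -0.33, -0.16 and -0.12 in Brg1-deficient replicate 1 and -0.15, -0.22 and -0.28 in replicate 2, which run in opposite orders.

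No change of height in Brg1-deficient retina passed the test at any member. Heights at P12 were compared with limma on log2 of the scaled fold enrichment, over the 6712 P0 replicate 2 peaks with a peak in all 9 H3K27Ac libraries, which include 65 members. These 65 had to have a peak in each library and are the stronger members. At an adjusted p under 0.05 (limma, Benjamini-Hochberg) 0 of the 65 members were called, where 0% of all 6712 were, and the smallest limma adjusted p was 0.9999. At an unadjusted p under 0.05, 1 member was lower, where 1.88% of all were past it in either direction. With 1 wild-type P12 library, the spread was pooled from the groups with 2 libraries, and p-values measure the spread between libraries, which may be technical.

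Ratios of Brg1-deficient to wild-type P12 height lay lower at the members than at peaks with H3K4me3, without any single call. In some fits, so did those of all peaks without H3K4me3. The median log2 ratio of Brg1-deficient to wild-type P12 was -0.36 over the 65 members and -0.04 over all 6712, of which 6647 were stable peaks with H3K4me3. Without scaling it was -0.09 and 0.24, so the sign for all peaks depended on the scaling. In the fit of the 3 P12 libraries alone, it was -0.24 over 243 members and -0.28 over all 1262 features without H3K4me3, where that of all 16237 was -0.06. Without P0 replicate 1 it was -0.34 over 65 members and -0.35 over 319 such features. These features include the members. In these 2 fits a lower ratio was thus not particular to the members among peaks without H3K4me3. Another 2 fits went the other way. Over merged regions it was -0.26 with a member and -0.21 without H3K4me3. With a pseudocount and a peak in at least 2 libraries, it was -0.25 over 283 members and 0 over 4105 features without H3K4me3. There a missing peak entered as a height of 0. Over the 243 members with a peak in the 3 P12 libraries, the medians were 0.10 and 0.07 unscaled in Brg1-deficient replicates 1 and 2 and -0.19 and -0.19 scaled. Over all 16237 such peaks they were 0.27 and 0.25 unscaled and -0.02 and -0.01 scaled. At least 2-fold lower in both Brg1-deficient libraries after scaling were 3 of the 243 members, where 0.628% of all were, and at least 2-fold higher were 2, where 1.42% of all were.

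The gap to stable peaks with H3K4me3 was present in each class of wild-type height. After scaling, the medians in Brg1-deficient replicates 1 and 2 were 0.10 and 0.06 at members of the lowest class, against 0.51 and 0.49 at stable peaks with H3K4me3. In the middle class they were -0.16 and -0.18 against 0.20 and 0.24, and in the highest -0.47 and -0.42 against -0.02 and -0.02. The medians of both sets were lower in higher classes, where the height that forms the classes is also the denominator of the ratio.

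**Figure D5:**
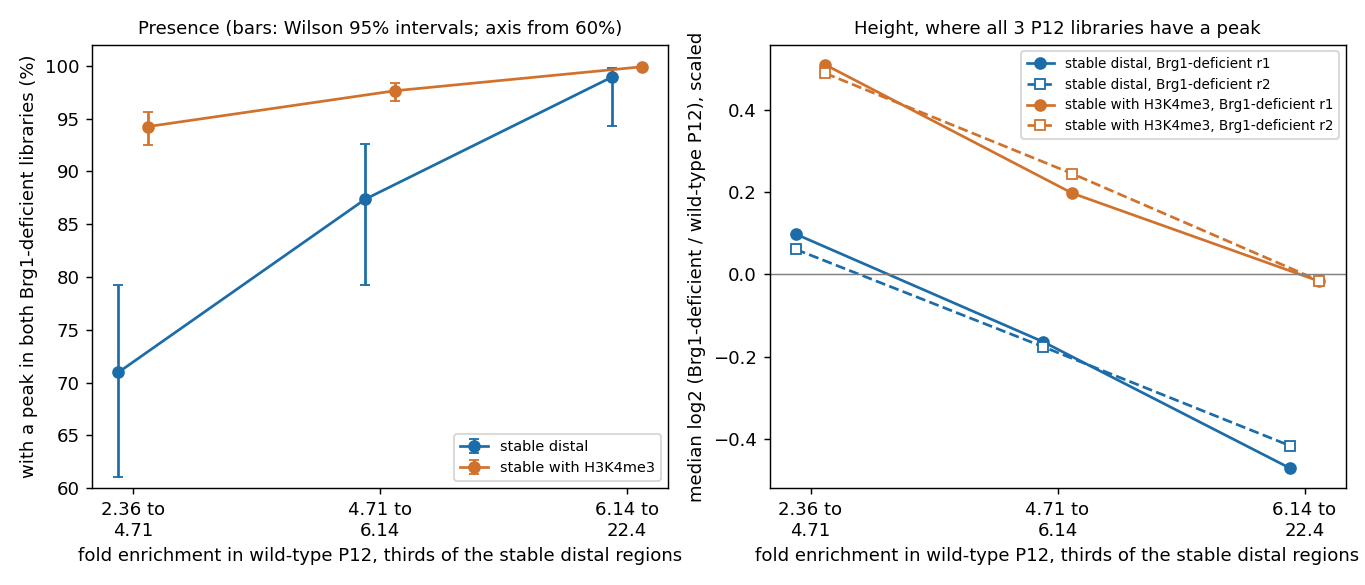
Stable distal regions (blue) and stable peaks with H3K4me3 (orange) in Brg1-deficient P12 retina, in 3 classes of wild-type P12 fold enrichment with cuts at 4.71 and 6.14. Left, share with a peak in both Brg1-deficient libraries with Wilson 95% intervals, on an axis that starts at 60%, where members rise from 71.0% to 98.9%; right, median log2 ratio to wild-type P12 after scaling in each Brg1-deficient library, where the members lie below in each class.

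Members were ranked in Brg1-deficient retina, among the 65, by the log2 ratio of the mean scaled height of both Brg1-deficient libraries to the scaled wild-type P12 height, while the heights given are unscaled. The 3 with the largest rise had low wild-type P12 values, which a ranking by this ratio favours. At chr8:129190263-129192943 the height was 3.93 in wild-type P12 and 11.4 and 7.86 in the Brg1-deficient libraries. Wild-type values at the other stages were 11.6 and 7.72 at P0, 5.19 and 4.75 at P14 and 4.61 and 4.07 at P21, so the P0 and Brg1-deficient values lay above all 5 later wild-type ones before scaling. After scaling, P21 replicate 1, at 9.32, lay above both Brg1-deficient values of 8.62 and 6.10, and they overlapped the wild-type range. Its limma log2 ratio was 0.99 ± 0.55 (SE) with an unadjusted p of 0.0761. At chr3:40852043-40852677 the height was 4.98 in wild-type P12 and 11.1 and 11.7 in Brg1-deficient P12, and wild-type P14 gave 8.90 and 17.6. Scaled, both wild-type P14 values (12.6 and 11.8) lay above both Brg1-deficient ones (8.45 and 9.09). At chr11:88395739-88396921 it was 5.57 against 12.2 and 12.7, both above all 7 wild-type values before scaling. Scaled, they were 9.29 and 9.89, below the 10.8 of wild-type P14 replicate 1, and both Brg1-deficient summits lay outside the region.

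In the members with the largest fall by the same ratio, 2 of 3 wild-type P12 values came from a summit outside the region. At chr12:112920217-112921584 the height was 22.4 in wild-type P12 against 7.96 and 12 in Brg1-deficient P12, with a log2 ratio of -1.47 ± 0.51 (SE). It was the single member under an unadjusted p of 0.05, with a limma adjusted p of 0.9999 (Benjamini-Hochberg). The wild-type summit lay outside the region, in a peak it shared with 2 neighbouring members. At chr16:37974345-37975205 the height was 6.82 in wild-type P12 against 4.15 and 3.70, and wild-type P14 replicate 2 gave 2.84, below both. At chr15:31332511-31333663 it was 18.7, from a summit outside the region, against 12 and 12, while the 6 other wild-type values ran from 3.64 to 20.2. This region lay 99 bp from H3K4me3. By limma's own log2 ratio (-0.91) it was not among the 3 lowest, since chr5:114915448-114916751 had -0.98. Among the members left out because replicate 1 of P14 and P21 had no peak, the wide region chr9:64620585-64623858 had 6.83 in wild-type P12 against 2.78 and 3.17, the lowest of its values.

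No H3K4me3 peak was called at the members in Brg1-deficient retina. None of the 283 overlapped a peak of that P12 library, which allows a share of up to 1.06% (3 counts of 283). Of the other distal P0 peaks, likewise chosen for lacking wild-type H3K4me3, 1 of 1088 did.

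H3K27me3 was nearly absent from the members at each stage. In both P0 libraries 0 of 283 lay in a domain, which allows a share of up to 1.06% by the same limit of 3 counts (Wilson upper bound 1.34%). Of all P0 replicate 2 peaks 12% and 15.0% did at P0, 13.9% and 20% at P14, and 15.6% and 17.7% at P21. At P14 there were 3 in replicate 1 and 10 in replicate 2 (2.30 ± 1.75%, SD, n = 2), and at P21 there were 2 and 4 (1.06 ± 0.50%, SD, n = 2). With 2 libraries against 2, a two-sided exact permutation test gave p = 0.333 for each stage against P0, the smallest it can give, so no difference could be called. At P12, with the other antibody, 7 and 1 members lay in a domain in wild-type retina and 2 in Brg1-deficient retina. Across the 9 lists, 270 members had no H3K27me3 domain in any.

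The other distal P0 peaks started from a similar level and differed later. They lay in a domain in 1.1% and 0.919% at P0, in 7.72% and 16.5% at P14 and in 9.10% and 11.2% at P21, with intervals above those of the members at P14 and P21. These peaks were chosen for lacking acetylation in at least 1 later library. Stable peaks with H3K4me3 lay in a domain in 9.75% to 14.7% of cases over the 6 libraries of P0, P14 and P21. The P14 lists are uneven between chromosomes, with 46.1% of the replicate 1 domains on chromosomes 1 to 4, against 21.9% to 27.6% in the other H3K27me3 lists, and no domain on X in replicate 2.

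Of the 13 members in any H3K27me3 domain, the widest member stood out. The region chr5:112665017-112669050 lay in a domain in 7 of 9 lists, all but those of P0, while its acetylation was 8.13 and 5.57 at P0, 3.58 at P12, 4.25 at P14 replicate 2 and 5.23 at P21 replicate 2. Acetylation called in wild-type retina at 3 later stages and H3K27me3 at the same stages thus fell on the same interval of whole tissue, and whether they lay in the same cells was not measured. It had no H3K27Ac peak in either Brg1-deficient library or in replicate 1 of P14 or P21.

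The members lay closer to H3K4me3 than the other distal P0 peaks. The median distance to the nearest wild-type H3K4me3 peak was 5990 bp (10 to 131460 bp), against 19960 bp. Within 1000 bp lay 53 members (18.7%), against 6.62% of the other distal peaks, and at least 10000 bp away lay 104 (36.7%), against 68.4%. At least 50000 bp away lay 19 members.

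Distance from H3K4me3 went with the members' course. The 53 members within 1000 bp of an H3K4me3 peak had median heights of 5.21 at P0 replicate 2, 5.84 at P12 and 5.56 at P21 replicate 2. The 104 members at least 10000 bp away had 6.0, 4.86 and 4.45. The median log2 ratio of P21 to P0 in replicate 2 was 0.22 in the near group, -0.09 in the 126 members between and -0.44 in the far group. In the libraries the rule did not use, 50.9% of the near members had a peak at P14 replicate 1 (interval 37.9 to 63.9%) and 58.5% at P21 replicate 1 (45.1 to 70.7%). The far members had 28.8% (21 to 38.2%) and 26% (18.5 to 35.1%), so the P21 intervals did not overlap and those of P14 overlapped narrowly.

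The Brg1 readouts followed the same order. Brg1 peaks at P0 were 2980 bp wide in the median at near members, 2507 bp at those between and 1708 bp at far members. The far members were thus close to the 1641 bp of the other distal P0 peaks, of which 68.4% lay at least 10000 bp away. Brg1 width was not compared between these sets at like distance. A peak in both Brg1-deficient libraries was found at 92.5% (82.1 to 97.0%), 87.3% (80.4 to 92.0%) and 80.8% (72.2 to 87.2%), and these intervals overlap. H3K27me3 in any list was found at 0, 5 and 8 members.

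Most members stood alone and some came in groups. When members within 10000 bp of each other were joined, 236 groups resulted, of which 199 were single regions, 32 were pairs and 5 held 3 or more, with 84 members in groups in all. The largest was chr5:125630983-125646027, with 6 members over 15045 bp, of which 7384 bp were acetylated peaks at P0 replicate 2. A single Brg1 peak of 12823 bp covered 5 of them. P0 replicate 2 heights ran from 3.81 to 8.38, P12 from 6.12 to 9.42 and P21 replicate 2 from 3.49 to 7.21, and both Brg1-deficient libraries had a peak at all 6.

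The other large groups differed in course. At chr12:112919532-112929760, 4 members over 10229 bp had heights of 4.42 to 5.29 at P0 replicate 2, of 11.7 to 22.4 at P12 and of 7.68 to 15.7 at P21 replicate 2. The 22.4 at P12 is the value of 3 of the members, from 1 summit, and each value at P21 replicate 2 belongs to 2 members, so these are not 4 separate measurements. In P21 replicate 1 the 3 members with a peak had 3.87, 17.1 and 3.27, so the high value there belonged to 1 of them. A Brg1 peak of 11409 bp lay over 2 of the members. At chr7:120384804-120396590, 4 members over 11787 bp varied less, with heights of 4.59 to 8.22 at P0 replicate 2, 4.17 to 6.13 at P12 and 3.18 to 4.78 at P21 replicate 2. All 4 had a peak in both Brg1-deficient libraries, at heights of up to 8.17 and 7.10.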

How the data were processed

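Peak lists of 27 mouse retina ChIP-Seq libraries were used, of 35 samples. The 8 input samples have no peak list and were not analysed here. Per the submitters' processing notes the build is mm9 and the tools include BWA 0.5.9-r26, Picard 1.65, MACS2 2.0.9, SICER 1.1 and bedtools 2.17.0. The authors called peaks per library. Heights are the deposited fold enrichment (a ratio over background at the summit), and the deposited −log10 q-value ranked peaks where the strongest were taken. The fold depends on each library's depth, which is unknown. For H3K27me3 the deposited SICER domains were used by position alone, with ends counted as inclusive.

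Overlaps of at least 1 bp were computed with Python 3.11.15, numpy 2.4.6, pandas 2.3.3 and scipy 1.17.1 and checked against bedtools 2.31.1. For heights, limma 3.58.1 was run under R 4.3.3 (an empirical Bayes fit of 9 libraries in 5 groups, Benjamini-Hochberg over all features tested), tested on simulated data first. Alternatives were another overlap, stronger peaks, other scaling, a pseudocount, merged regions, a replicate block and each library left out. Figures were drawn with matplotlib 3.10.9. Groups and replicate numbers are those of the titles. The members and lists were chosen with earlier results of these data known. Named regions are the 5 with the highest lowest scaled height, the 3 widest, the 3 largest rises and 3 largest falls from P0 to P21 and in Brg1-deficient retina, the 3 largest groups within 10000 bp and those nearest the threshold. The gene and sequence tables at hand are of another build and were not used.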

Additional observations from a re-analysis of the deposited data

How the results depend on the processing

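The number of stable distal regions depended on how many peaks each list held. The 283 became 3 with the strongest 50% of peaks of each list, 52 with equal numbers of the strongest peaks and 65 with P14 replicate 1 and P21 replicate 1 also asked for. It was 264 with an overlap of 50% of either peak and 230 with no H3K4me3 peak within 1000 bp, and leaving out 1 library gave 300 to 1219, the highest without P0 replicate 1. The share with a peak in both Brg1-deficient libraries was 85.9%, 47.0% with the strongest 50% of Brg1-deficient peaks, and 88.3% to 94.0% with 1 Brg1-deficient library left out, the highest without replicate 2. The share with Brg1 was 97.9%, and 91.2% with the strongest 50% of Brg1 peaks. The difference in H3K27me3 share against P0 could not be negative in any alternative, since no member lay in a P0 domain, so its sign tests nothing. Leaving out 1 library gave differences of 1.06 to 3.53 percentage points at P14, the highest without P14 replicate 1, and 0.707 to 1.41 at P21. Limma called 0 of the tested features in each of its 16 alternatives, and between 46 and 834 features lay under an unadjusted p of 0.05. With the replicate block it called 0 as well, with 157 under 0.05; differences between replicates correlated at -0.01 to 0.25 between groups, so the numbers were not taken as pairs. In 7 libraries without P14 replicate 1 and P21 replicate 1, chosen after seeing the data, 243 members entered and 0 of 11970 features were called, with 471 at an unadjusted p under 0.05. The members' median minus that of all features lay between -0.34 and -0.18. A divisor per library cannot move this gap, so only the alternatives other than scaling bear on it. Depth limits each absence of a peak.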

Other observations

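The members were unevenly spread over chromosomes. Chromosome 11 held 34 members, chromosome 9 held 30 and chromosome 12 held 26, while chromosome 1 held 6 and X none. As a share of the reproducible P0 peaks without H3K4me3 on the same chromosome, this was 24.1%, 38.0%, 28.0% and 9.38%, and on X there were only 4 such peaks. These are values without a test.

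Of the 6 members without a Brg1 peak at P0, all had a peak in P0 replicate 1 and in wild-type P12 by the rule. All 6 had a peak in both Brg1-deficient libraries, as did 237 of the 277 members with Brg1. Over all P0 replicate 2 peaks with a wild-type P12 peak the share was 92.3%. With 6 regions a difference was not tested.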
